A study of Homo sapiens with 36 samples.

Results

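The genes described here encode 10 heterogeneous nuclear ribonucleoproteins (hnRNPs): HNRNPA1, HNRNPA2B1, HNRNPA3, HNRNPC, HNRNPD, HNRNPK, HNRNPL, HNRNPM, HNRNPU and HNRNPR. They were taken by gene symbol, 10 of the 60675 genes in the count table, and all 10 were among the 31849 genes with enough counts to test. The RNA came from HEK293T, an established human embryonic kidney cell line, in which the enzyme ADAR was fused to YTHDF1, YTHDF2 or YTHDF3, proteins that read N6-methyladenosine (m6A) in mRNA. Every group, inputs included, expressed a fusion after doxycycline at 1 ug/mL for 24 h. Each of the 3 lines gave 4 groups of 3 libraries: input lysate RNA, and 3 kinds of immunoprecipitated RNA (RIP), in which the antibody bound the cells' own YTHDF1, YTHDF2 or YTHDF3. This makes 36 libraries. A cell line without a fusion, or a RIP with a control antibody, was not analysed here. The labels do not say whether a line is 1 clone, nor whether replicates were grown separately. The p-values therefore measure a spread among libraries that may be technical.

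The hnRNPs are abundant nuclear proteins that coat newly made transcripts and guide their splicing, export, stability and translation. Many of them move between nucleus and cytoplasm, and several, HNRNPC and HNRNPA2B1 among them, have been studied as proteins whose RNA contacts relate to m6A. The data here concern their mRNAs: whether transcripts that encode hnRNPs were recovered with each YTHDF protein, and whether the ADAR fusions left edited sites on them. A RIP compares the make-up of the recovered RNA with that of the input, so a log2 fold change below 0 says that an mRNA held a smaller share of the RIP library, after scaling, than of the input library.

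The members fall into several groups by role, with positions given in GRCh38 from the count tables. HNRNPA1 (chr12:54280193-54287088), HNRNPA2B1 (chr7:26171151-26201529) and HNRNPA3 (chr2:177212563-177223958) belong to the A/B family, which shapes splice site choice and carries mRNAs through the cell. HNRNPC (chr14:21209136-21269494) binds uridine tracts in nascent transcripts. HNRNPD (chr4:82352498-82374503), also called AUF1, binds AU-rich elements and affects mRNA decay. HNRNPK (chr9:83968083-83980616) binds cytidine-rich RNA through KH domains, and HNRNPL (chr19:38836388-38852347) binds CA repeats and regulates splicing. HNRNPM (chr19:8444767-8489114) is a splicing regulator, HNRNPU (chr1:244840638-244864560) is the nuclear scaffold protein SAF-A, and HNRNPR (chr1:23303771-23344336) is an RNA-binding protein close to SYNCRIP.

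Assigned counts per library came to 12.5 to 16.3 M in 6 libraries, the YTHDF1 RIPs from YTHDF2-ADAR and YTHDF3-ADAR cells, and to 15.9 to 37.5 M in the other 30. Those 6 libraries stood apart in make-up as well: protein-coding genes took 54.1 to 74.2% of their counts against 71.5 to 92.4%, mitochondrial mRNAs 3.15 to 8.58% against 0.561 to 3.06%, and small nucleolar RNAs 0.696 to 4.35% against 0.0360 to 0.564%. Among the other 30, protein-coding genes took 71.5 to 79.1% in inputs and 82.8 to 92.4% in RIPs. Their RIP against input comparisons thus also set libraries of unlike make-up side by side, and the part of this in the fold changes was not tested. Olfactory receptor genes, which these cells should hardly transcribe, summed to 31.7 to 53.2 CPM in the 6 and to 2.71 to 18.3 in the rest. CPM is the usual depth-scaled count, with TMM scaling for single genes and without it for this sum. Results on YTHDF1 RIP in those lines rest on these 6 libraries. The YTHDF1-ADAR line gives YTHDF1 RIP against input without them, but in cells that express the YTHDF1 fusion. YTHDF1 mRNA read 3190 CPM in that RIP, and 44.4 and 45.7 in YTHDF1 RIP of YTHDF2-ADAR and YTHDF3-ADAR cells. Whether the antibody also took up the fusion protein was not tested. The fused gene was high in the input of its own line: YTHDF1 stood at 634 ± 97.4 CPM (SD, n = 3) in YTHDF1-ADAR cells against 87.8 ± 2.03 and 94.0 ± 5.10 in the others, YTHDF2 at 320.4 ± 2.26 in YTHDF2-ADAR cells against 154 ± 22.7 and 197 ± 6.77, and YTHDF3 at 122 ± 14.6 in YTHDF3-ADAR cells against 52.8 ± 5.99 and 54.7 ± 8.82. These reads do not separate fusion from endogenous transcripts. Genes known from HEK293 cells were present in every library (VIM 57.0 to 421 CPM, NEFM 169 to 1882 CPM). Of the blood, fibroblast and hepatocyte markers read, PTPRC, HBB, CD3E, COL1A2, DCN, ALB, TTR and others were at or near 0, while COL1A1 reached 50.2 CPM and HBA1 9.59 CPM.

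In input RNA all 10 mRNAs were abundant. Levels of most members were closer across the lines than those of HNRNPA1, whose line difference is given below. Per kilobase of annotated exon, the mean over the 3 lines was highest for HNRNPA1, at 222 (line means 177 to 263) CPM per kb, followed by HNRNPK at 132 (line means 116 to 152). HNRNPC at 87.8 (line means 78.8 to 95.2), HNRNPM at 78.0 (line means 75.4 to 80.9) and HNRNPA3 at 76.6 (line means 71.3 to 82.4) followed in turn, and each overlapped its neighbour in the ranges of the line means. HNRNPA2B1 came next at 72.8 (line means 71.8 to 74.5), overlapping HNRNPA3, then HNRNPL at 67.9 (line means 62.3 to 70.7) and HNRNPU at 50.2 (line means 50 to 50.4). HNRNPD at 39.9 (line means 36.3 to 45.4) and HNRNPR at 33.0 (line means 28.9 to 35.3) were lowest. These lengths add up every annotated exon, 22512 bases for HNRNPU and 5095 for HNRNPK, and so set the per-length order in part. A lower bulk level cannot tell fewer cells with an RNA from less of it per cell.

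No member differed between inputs at an adjusted p under 0.05 by edgeR's quasi-likelihood test with Benjamini-Hochberg adjustment over all genes tested, the rule used for every call below. That was 0 of 10 in each of the 3 comparisons of lines, where 17.6%, 16.4% and 3.42% of all genes were called (YTHDF1-ADAR against YTHDF2-ADAR, YTHDF1-ADAR against YTHDF3-ADAR, and YTHDF2-ADAR against YTHDF3-ADAR). At an unadjusted p under 0.05 the counts were 2, 0 and 0. HNRNPA1 came nearest: its inputs read 823, 1389 and 1338 CPM in YTHDF1-ADAR cells and 1882, 1594 and 1806 in YTHDF2-ADAR cells, with no overlap, a log2 difference of -0.57 ± 0.21 (SE, adjusted p = 0.0507). Under DESeq2 this difference was called (adjusted p = 0.0212), as it was without input replicate 2 or 3 of YTHDF1-ADAR cells or replicate 2 of YTHDF2-ADAR cells (0.0147 to 0.0499). HNRNPK was called without replicate 2 (0.0258) or 3 (0.0489) of the YTHDF1-ADAR inputs. Input replicate 1 of YTHDF1-ADAR cells was the lowest of its 3 for each of the 10 members.

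**Figure D1:**
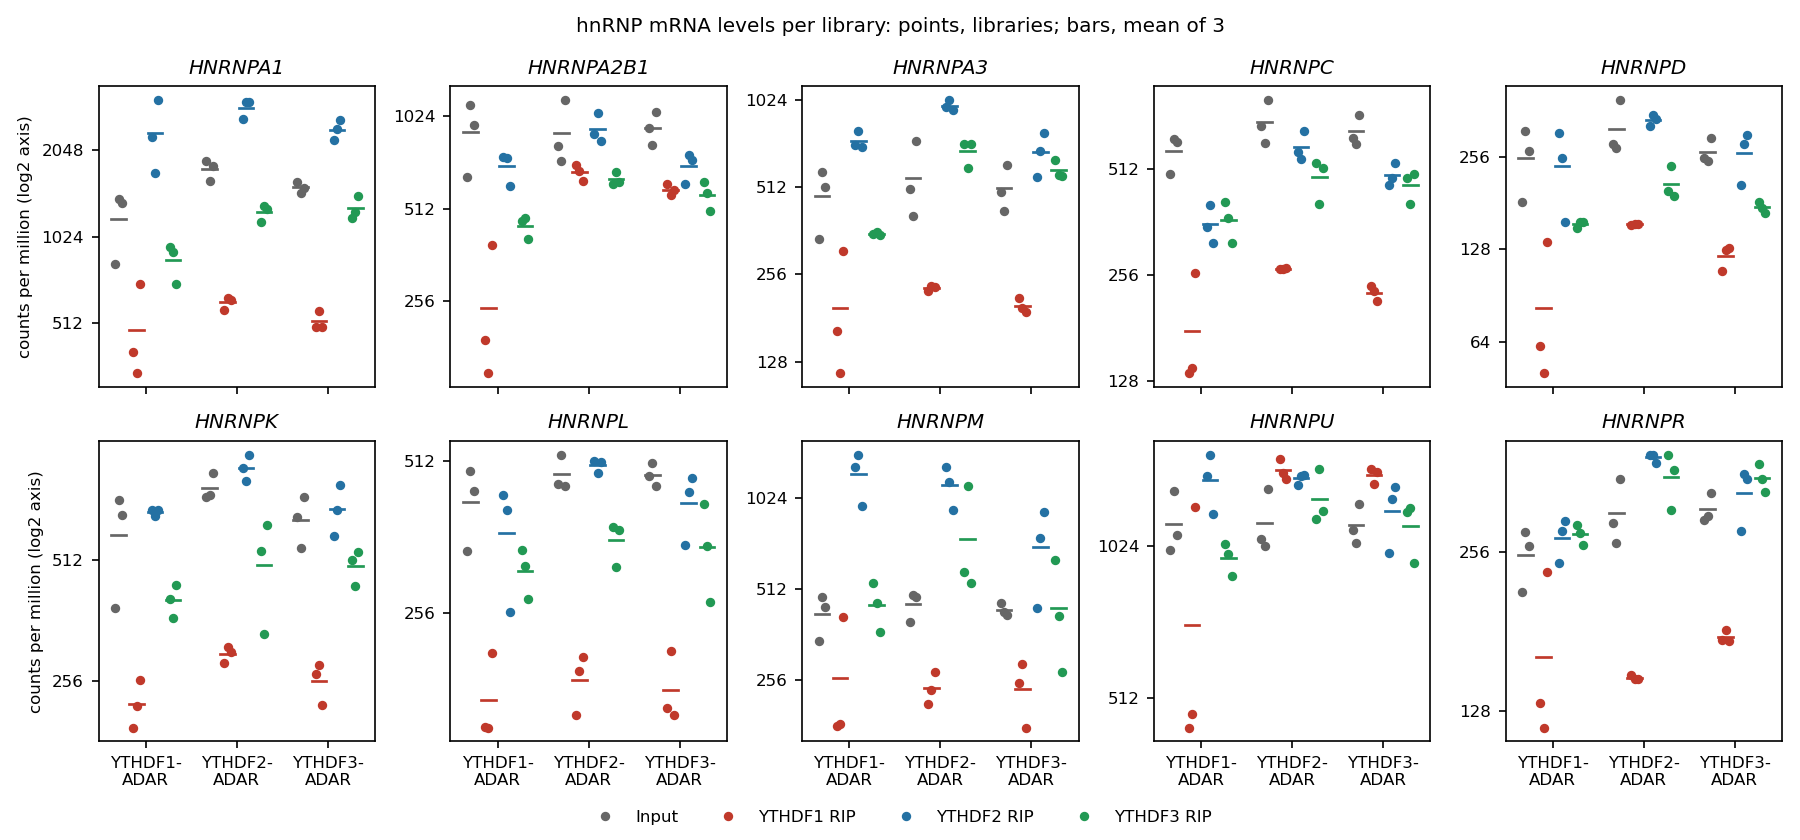
Level of each hnRNP mRNA in every library, in TMM-scaled CPM on a log2 axis, by line (x axis) and arm (color), with points for libraries and bars for the mean of 3. YTHDF1 RIP points lie lowest for most genes in each line, and YTHDF2 RIP points lie above input for HNRNPA1. In the YTHDF2-ADAR and YTHDF3-ADAR lines HNRNPU departs from the YTHDF1 RIP pattern. So does HNRNPA2B1, whose mean there is lowest in YTHDF3 RIP.

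YTHDF1 RIP held less of most hnRNP mRNAs than input did in all 3 lines. In YTHDF1-ADAR cells 9 of 10 members were lower and 0 higher, in YTHDF2-ADAR cells 8 and 0, and in YTHDF3-ADAR cells 9 and 0. Over all genes tested, 28.8%, 33.4% and 32.4% were lower and 20.6%, 41.8% and 40.8% higher in the same order. Among the 15953 protein-coding genes tested, 5759, 8159 and 8016 were lower and 4644, 3565 and 3518 higher. Lower calls were thus more common among protein-coding genes than among all genes. The members' median log2 fold change was -1.30, -1.15 and -1.23, beside -0.28, 0.20 and 0.21 for all genes tested and -0.16, -0.48 and -0.45 for protein-coding genes. The 3 comparisons within a line share its inputs, and different lines share no library.

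Scaling moved whole comparisons, the members with them. In YTHDF1 RIP the median over all genes was -0.28, 0.20 and 0.21 by line with TMM, and 41.7, 55.6 and 55.7% of the called genes were higher. With TMM over protein-coding genes it was -0.23, 0.67 and 0.65, with 44.0, 70.0 and 70.2% higher. With total counts it was -0.13, 0.72 and 0.54, with 49.0, 71.7 and 66.7% higher. With scaling to mitochondrial mRNAs it was -1.43, -0.55 and -1.42, with 2.42, 38.4 and 18.1% higher. The members called lower in YTHDF1 RIP stayed below 0 under each of these scalings.

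HNRNPC, the uridine-tract binder, shows the size of the difference. Its inputs in YTHDF1-ADAR cells read 496, 623 and 609 CPM and its YTHDF1 RIP libraries 135, 139 and 259. The corresponding values were 677, 606 and 805 against 265, 266 and 267 in YTHDF2-ADAR cells. In YTHDF3-ADAR cells they were 627, 604 and 730.3 against 238, 231 and 215. Every RIP library lay below every input of its line. The log2 fold change was -1.70 ± 0.18 (SE, adjusted p = 9.37e-10), -1.39 ± 0.18 (adjusted p = 4.03e-08) and -1.52 ± 0.18 (adjusted p = 8.44e-09).

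Within the A/B family HNRNPA1 and HNRNPA3 fell by a similar amount in each line; HNRNPA2B1 is taken up with the differences between lines. HNRNPA1 changed by -1.29 ± 0.21, -1.54 ± 0.21 and -1.55 ± 0.21 in the YTHDF1-, YTHDF2- and YTHDF3-ADAR lines, with YTHDF1 RIP libraries at 408, 344 and 703 CPM in the first. HNRNPA3 changed by -1.28 ± 0.23, -1.26 ± 0.23 and -1.35 ± 0.23. Groups did not overlap for either gene in any line. The cytidine-rich binder HNRNPK (-1.39, -1.37 and -1.33) and the CA-repeat binder HNRNPL (-1.31, -1.36 and -1.42) were lower by nearly the same amount in each line, and the decay factor HNRNPD was lower too (-1.62, -1.04 and -1.13). All of these were called, with adjusted p-values from 6.39e-08 to 0.000251.

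HNRNPR and HNRNPM showed smaller differences. HNRNPR was lower, with log2 fold changes of -0.64, -1.03 and -0.80, called in each line (adjusted p = 0.00171, 2.24e-06 and 9.30e-05). HNRNPM read 343, 480.3 and 445 CPM in YTHDF1-ADAR inputs and 180.3, 183 and 412 in YTHDF1 RIP, where the third RIP library overlapped the inputs, and its difference of -0.71 ± 0.30 was not called (adjusted p = 0.0521). It was called in YTHDF2-ADAR cells (-0.92 ± 0.31, adjusted p = 0.00763) and in YTHDF3-ADAR cells (-0.87 ± 0.31, adjusted p = 0.0121), but not there with TMM over protein-coding genes (-0.46 and -0.43, adjusted p = 0.157 and 0.183).

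In YTHDF1-ADAR cells YTHDF1 RIP replicate 3 was the highest of its group for all 10 members. HNRNPU shows it most: 448, 476 and 1223 CPM, against inputs of 1004, 1309.7 and 1076, so that replicates 1 and 2 lay far below the inputs and replicate 3 among them. Its log2 fold change of -0.66 ± 0.22 (adjusted p = 0.0137) was no longer called without YTHDF1 RIP replicate 1 (adjusted p = 0.224) or 2 (0.207), nor without input replicate 2 (0.154) or 3 (0.0514). HNRNPR lost its call without YTHDF1 RIP replicate 1 (0.0524) or 2 (0.0764), and HNRNPM gained one without YTHDF1 RIP replicate 3 (0.0023) or input replicate 1 (0.0336). The other 7 members were called whichever library was left out.

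HNRNPA2B1 and HNRNPU were the members whose YTHDF1 RIP values differed between lines, and each call was lost in some fits without 1 library. A test of the RIP-to-input difference across the 3 lines called 2 of 10 members, HNRNPA2B1 (adjusted p = 0.000211) and HNRNPU (adjusted p = 0.00719), while 63.7% of all genes tested were called by it. HNRNPA2B1 read 652, 1119 and 957 CPM in YTHDF1-ADAR inputs and 191, 149.6 and 391 in YTHDF1 RIP, a log2 fold change of -1.90 ± 0.23 (adjusted p = 8.71e-09). In YTHDF2-ADAR cells inputs of 823, 732 and 1161 stood against 712, 682 and 631, again without overlap but closer together (-0.42 ± 0.22, adjusted p = 0.0809); this was called without YTHDF1 RIP replicate 1 or 3 or without input replicate 1 or 2 (adjusted p = 0.00355 to 0.0223). In YTHDF3-ADAR cells 936, 824 and 1059 stood against 619, 566 and 589.5 (-0.67 ± 0.22, adjusted p = 0.00781). The fold change in the YTHDF1-ADAR line minus that in the YTHDF2-ADAR line was -1.48 ± 0.31, and minus that in the YTHDF3-ADAR line -1.23 ± 0.31.

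HNRNPU gave values near or above input in the 2 lines whose YTHDF1 RIP libraries stood apart. It read 1056, 1022 and 1327 CPM in YTHDF2-ADAR inputs and 1514, 1423 and 1387 in YTHDF1 RIP, all 3 above the inputs, a log2 fold change of 0.34 ± 0.22 that was not called (adjusted p = 0.16). YTHDF3-ADAR inputs of 1101, 1039 and 1236 stood against 1451, 1354 and 1433, again without overlap (0.33 ± 0.22, adjusted p = 0.183). The YTHDF1-ADAR fold change minus these was -1.0 ± 0.32 and -0.99 ± 0.32. Each fit without 1 library was filtered and TMM-scaled anew, so its values also carry a change of scaling. Without input replicate 2 of the line, the log2 fold change of HNRNPU was -0.04 in each of the 2 lines. It was below 0 also without input replicate 1 of either line or YTHDF1 RIP replicate 1 of YTHDF2-ADAR cells, called in none of these. In YTHDF2-ADAR cells HNRNPA1 ran from -1.92 to -1.57 over such fits, below its value with all libraries. HNRNPC ran from -1.79 to -1.39 there, with YTHDF1 RIP libraries at 265, 266 and 267 CPM. The parts of the library left out and of the scaling were not told apart. With TMM over protein-coding genes the 2 lines gave 0.81 and 0.77 for HNRNPU, both called (adjusted p = 0.000873 and 0.00151), and scaling to mitochondrial mRNAs gave -0.35 and -1.26, the second called lower (adjusted p = 0.0074). HNRNPA2B1 was 0.04 and -0.22 with TMM over protein-coding genes, neither called. Its test of the difference between lines lost its call in 2 of 18 fits that each left out 1 library (YTHDF1 RIP replicate 2, adjusted p = 0.0516, and input replicate 2, 0.0508, of YTHDF1-ADAR cells), and that of HNRNPU in 14 of 18, where adjusted p ran up to 0.468 without YTHDF1 RIP replicate 1 of YTHDF1-ADAR cells. HNRNPR, not called with all libraries (adjusted p = 0.326), was called in 12 of these 18 fits (adjusted p = 0.00554 to 0.0481), and HNRNPA1 without YTHDF1 RIP replicate 2 of YTHDF1-ADAR cells (0.0418). The differing make-up of the 6 libraries moves with these line differences, and its part in them was not tested.

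**Figure D2:**
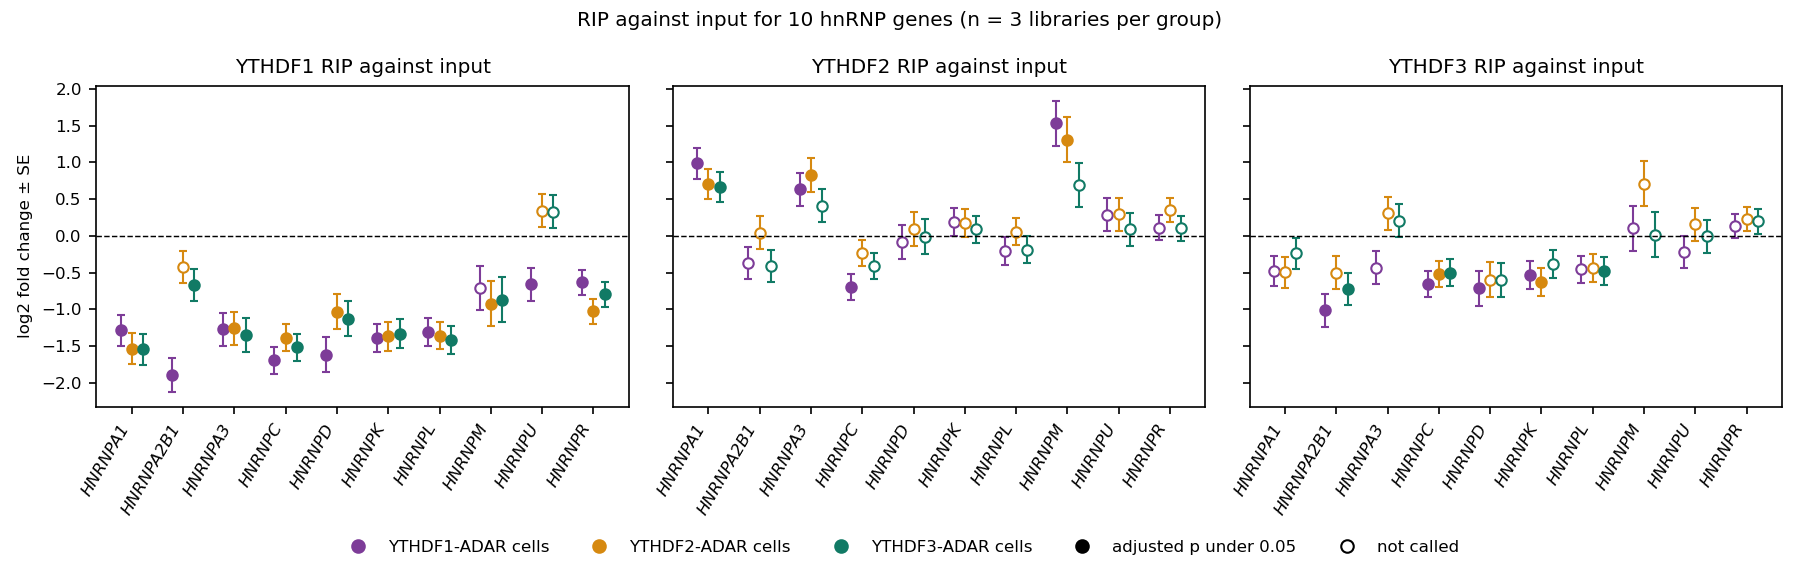
Log2 fold change of each hnRNP mRNA in RIP against input, with SE, for the 3 antibodies (panels) and 3 lines (colors), from 3 libraries per group; filled points were called at an adjusted p under 0.05. YTHDF1 RIP values lie below 0 except for HNRNPU in 2 lines (where it was not called, and scaling to mitochondrial mRNAs or leaving out 1 input library, with scaling done anew, puts it below 0), and YTHDF2 RIP values of HNRNPA1, HNRNPA3 and HNRNPM lie above 0 in each line.

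YTHDF2 RIP held more of HNRNPA1, HNRNPM and HNRNPA3 than input did in some or all lines, and for the other members, HNRNPC apart, no difference was called. The counts higher and lower were 3 and 1 of 10 in YTHDF1-ADAR cells, 3 and 0 in YTHDF2-ADAR cells, and 1 and 0 in YTHDF3-ADAR cells. Over all genes 8.66%, 10.2% and 8.98% were higher and 15.4%, 10.1% and 9.93% lower. Of 15953 protein-coding genes 2283, 2650 and 2340 were higher and 3509, 2131 and 2072 lower. With 10 members, the counts lay near these shares and are not read as a trait of the members. The members' medians were 0.15, 0.23 and 0.09, beside -0.11, 0.02 and 0.00 for all genes tested. The difference between lines was called for 0 members and for 0% of all genes, with 0 members and 1064 genes at an unadjusted p under 0.05, and 3 genes called by DESeq2.

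In YTHDF2 RIP the median over all genes was -0.11, 0.02 and 0.00 by line with TMM, and 35.9, 50 and 47.5% of the called genes were higher. With TMM over protein-coding genes it was -0.06, 0.00 and -0.03, with 41.0, 47.0 and 40.5% higher. With total counts it was 0.09, 0.22 and 0.19, with 57.7, 71.5 and 70.9% higher. With scaling to mitochondrial mRNAs it was 0.40, 0.41 and -0.18, with 66.4, 31.2 and 0.280% higher. HNRNPA1, HNRNPA3 and HNRNPM stayed above 0 wherever they had been called.

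HNRNPA1 was the member called in all 3 lines. Its YTHDF2 RIP libraries read 2273, 1710.1 and 3065 CPM in YTHDF1-ADAR cells, 2626, 3003 and 3007 in YTHDF2-ADAR cells and 2211, 2415 and 2608 in YTHDF3-ADAR cells. The inputs were 823, 1389 and 1338 in the first line, 1882, 1594 and 1806 in the second and 1591, 1453 and 1512 in the third, so that each RIP library exceeded every input of its line. The log2 fold change was 0.99 ± 0.21 (adjusted p = 0.000397), 0.71 ± 0.21 (0.0119) and 0.67 ± 0.21 (0.0202). Without input replicate 1 and YTHDF2 RIP replicate 3 of YTHDF1-ADAR cells, an alternative added after seeing the data, the first fell to 0.54 and was not called (adjusted p = 0.0628). In YTHDF3-ADAR cells the call was lost without YTHDF2 RIP replicate 3 or without any 1 of the 3 inputs (adjusted p = 0.0945 to 0.141), and in YTHDF2-ADAR cells without YTHDF2 RIP replicate 1 or any 1 input (0.0507 to 0.118).

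HNRNPM, the splicing regulator, had the largest YTHDF2 RIP value among the members in each line, and was called in the YTHDF1-ADAR and YTHDF2-ADAR lines. It read 1291, 1423 and 963 CPM against inputs of 343, 480.3 and 445 in the first of these, 1.53 ± 0.31 (adjusted p = 0.000292). In the second it read 1293, 1157 and 931 against 396, 487 and 480.5, 1.31 ± 0.31 (adjusted p = 0.00207). The 2 values stood at the 99.6 and 98.6 percentiles of protein-coding genes. In YTHDF3-ADAR cells the RIP libraries spread widely, 442, 755 and 919 against 459.7, 429 and 418, and replicate 1 lay among the inputs (0.69 ± 0.30, adjusted p = 0.114); without that library the difference was called (0.0219).

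HNRNPA3 followed the same direction with smaller values. Its YTHDF2 RIP libraries read 711, 797 and 705 CPM against inputs of 339.9, 578 and 509.7 in YTHDF1-ADAR cells (0.63 ± 0.23, adjusted p = 0.0363). They read 963, 1023 and 943 against 504, 407 and 737 in YTHDF2-ADAR cells (0.83 ± 0.23, adjusted p = 0.0068), and 554, 682 and 785 against 490.4, 422 and 609 with overlap in YTHDF3-ADAR cells (0.41 ± 0.22, adjusted p = 0.224). The first call was lost without YTHDF2 RIP replicate 1 (0.0689), YTHDF2 RIP replicate 2 (0.11) or input replicate 1 (0.214), and the second without input replicate 1 (0.0726) or 2 (0.124). HNRNPA2B1, of the same family, was not called in any line (-0.37, 0.05 and -0.41).

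HNRNPC was the member called lower, in YTHDF1-ADAR cells. YTHDF2 RIP libraries of 350.1, 403 and 315 CPM lay below inputs of 496, 623 and 609 (-0.69 ± 0.18, adjusted p = 0.00338). It was -0.24 in YTHDF2-ADAR cells and -0.41 in YTHDF3-ADAR cells, neither called. The call in YTHDF1-ADAR cells was lost without YTHDF2 RIP replicate 3 (0.0537), input replicate 2 (0.0667) or input replicate 3 (0.0618). HNRNPK, HNRNPL, HNRNPD, HNRNPU and HNRNPR lay between -0.21 and 0.35 in all lines, and none of them was called.

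YTHDF3 RIP held less of HNRNPC than input in each line, and less of HNRNPA2B1, HNRNPK, HNRNPD or HNRNPL in some of them. The counts higher and lower were 0 and 4 in YTHDF1-ADAR cells, 0 and 2 in YTHDF2-ADAR cells, and 0 and 3 in YTHDF3-ADAR cells. Over all genes 11.5%, 15.2% and 13.5% were higher and 20.1%, 16.9% and 16.1% lower. Of 15953 protein-coding genes 4183, 3716 and 3470 were lower. With 10 members, the counts of lower calls lay near these shares and are not read as a trait of the members. The members' medians were -0.47, -0.47 and -0.31, beside -0.23, 0.09 and 0.01 for all genes and -0.11, 0.03 and 0.04 for protein-coding genes. The difference between lines was called for 0 of 10 members and 0.00628% of all genes; at an unadjusted p under 0.05 these were 0 members and 1632 genes, and DESeq2 called 6 genes.

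HNRNPC was lower in each line, at -0.65 ± 0.18, -0.52 ± 0.18 and -0.50 ± 0.18 (adjusted p = 0.00427, 0.0227 and 0.0308), though with scaling to mitochondrial mRNAs it stood at 0.21 in YTHDF2-ADAR cells. Its YTHDF3 RIP libraries read 411, 372 and 316 CPM in YTHDF1-ADAR cells, 532, 408 and 514 in YTHDF2-ADAR cells and 482, 407 and 496 in YTHDF3-ADAR cells, all below the inputs given above. HNRNPA2B1 was lower in YTHDF1-ADAR cells, at 467, 478 and 407 CPM (-1.01 ± 0.22, adjusted p = 0.000454), and in YTHDF3-ADAR cells, at 627, 575 and 505 (-0.72 ± 0.22, adjusted p = 0.0112). HNRNPK was lower in YTHDF1-ADAR cells (-0.54 ± 0.19, adjusted p = 0.0275) and YTHDF2-ADAR cells (-0.63 ± 0.19, adjusted p = 0.00891), but at 0.04 and 0.03 with scaling to mitochondrial mRNAs. HNRNPD was lower in YTHDF1-ADAR cells (-0.71 ± 0.24, adjusted p = 0.0187) and HNRNPL in YTHDF3-ADAR cells (-0.48 ± 0.19, adjusted p = 0.0496). HNRNPA3, HNRNPM, HNRNPU and HNRNPR lay between -0.43 and 0.71, and none was called. In YTHDF2-ADAR cells HNRNPM read 583, 1119 and 533 CPM, with replicate 2 far above the rest.

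In YTHDF3 RIP the median over all genes was -0.23, 0.09 and 0.01 by line with TMM, and 36.3, 47.4 and 45.7% of the called genes were higher. With TMM over protein-coding genes it was -0.22, 0.11 and 0.00, with 38.3, 49.2 and 43.8% higher. With total counts it was 0.04, 0.37 and 0.24, with 60, 68.5 and 64.9% higher. With scaling to mitochondrial mRNAs it was 0.11, 0.82 and 0.36, with 44.6, 87.9 and 37.7% higher. Under the last of these 0 members were called in YTHDF1-ADAR cells and 0 in YTHDF3-ADAR cells.

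Most of these calls were close to the limit. Leaving out 1 library at a time gave 1 to 6 called members in YTHDF1-ADAR cells, where HNRNPC, HNRNPD or HNRNPK lost its call without any 1 of the YTHDF3 RIP libraries or of input replicates 2 and 3 (adjusted p = 0.095 to 0.617), and 1 to 4 in YTHDF2-ADAR cells, where the call of HNRNPC was lost without YTHDF3 RIP replicate 2 or input replicate 3 (0.0827 for each) and that of HNRNPK without YTHDF3 RIP replicate 2 (0.0893). In YTHDF3-ADAR cells the count ran from 0, without input replicate 3, to 3. There HNRNPA2B1 lost its call without YTHDF3 RIP replicate 3 or input replicate 3 (0.0583 each), HNRNPC without YTHDF3 RIP replicate 2 or input replicate 3 (0.115 each), and HNRNPL without YTHDF3 RIP replicate 2 or 3 or any 1 input (0.0738 to 0.259). HNRNPL also lost it with the replicate number as a block (adjusted p = 0.0723). Without input replicate 1 and YTHDF2 RIP replicate 3 of YTHDF1-ADAR cells, 7 members were lower in YTHDF1-ADAR cells. The share of all genes called lower in that fit is not given here, so this count is not read as a trait of the members.

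The antibodies were also compared directly, the YTHDF1 RIP in YTHDF1-ADAR cells alone. In YTHDF1-ADAR cells 10 of 10 members were lower in YTHDF1 RIP than in YTHDF2 RIP (18.8% of all genes lower, 20.3% higher), with a median log2 difference of -1.53 against -0.13 for all genes. The largest were HNRNPA1 (-2.28 ± 0.22, adjusted p = 1.71e-10) and HNRNPM (-2.25 ± 0.32, adjusted p = 6.64e-07), and the smallest was HNRNPR (-0.75 ± 0.17, adjusted p = 0.00042). Against YTHDF3 RIP 9 of 10 were lower in YTHDF1 RIP (18.7% of all genes lower, 22.4% higher), with a median of -0.85, from HNRNPC at -1.04 ± 0.18 to HNRNPR at -0.77 ± 0.17. HNRNPU was not called (-0.44 ± 0.22, adjusted p = 0.118), except without YTHDF1 RIP replicate 3 (adjusted p = 7.57e-06). The call of HNRNPM was lost without YTHDF1 RIP replicate 1 or 2 or YTHDF3 RIP replicate 1 or 2 (0.0625 to 0.135).

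YTHDF2 RIP held more of HNRNPA1 than YTHDF3 RIP in each line, and more of some other members in YTHDF1-ADAR and YTHDF2-ADAR cells. In YTHDF1-ADAR cells 5 were higher and 0 lower (10.7% and 8.51% of all genes), in YTHDF2-ADAR cells 3 and 0 (12.1% and 8.33%), and in YTHDF3-ADAR cells 1 and 0 (9.01% and 5.75%). Of 15953 protein-coding genes 2536, 3123 and 2365 were higher by line. With 10 members, the counts in YTHDF2-ADAR and YTHDF3-ADAR cells lay near these shares and are not read as a trait of the members. HNRNPA1 was the member called in each line, by 1.47 ± 0.21, 1.21 ± 0.21 and 0.91 ± 0.21 (adjusted p = 2.75e-06, 5.48e-05 and 0.00232). HNRNPK was called in the first 2 (0.73 and 0.80), HNRNPM, HNRNPA3 and HNRNPA2B1 in YTHDF1-ADAR cells (1.43, 1.07 and 0.64) and HNRNPD in YTHDF2-ADAR cells (0.69). In YTHDF1-ADAR cells the call of HNRNPA2B1 was lost without any 1 of the 6 RIP libraries compared (adjusted p = 0.0502 to 0.207), and that of HNRNPK without YTHDF2 RIP replicate 1 or YTHDF3 RIP replicate 1 or 2 (0.0589 to 0.0597), while HNRNPD gained one without YTHDF2 RIP replicate 3 (0.0218). In YTHDF2-ADAR cells the call of HNRNPD was lost without any 1 of the YTHDF2 RIP libraries or YTHDF3 RIP replicate 1 or 3 (0.0733 to 0.149). HNRNPM gained a call without YTHDF3 RIP replicate 2 of YTHDF2-ADAR cells (0.0239) or replicate 1 of YTHDF3-ADAR cells (0.0424). With the replicate number as a block the calls of HNRNPA2B1 (0.0574) and HNRNPD (0.0566) were lost. By mean level, the order YTHDF1 RIP, YTHDF3 RIP, YTHDF2 RIP from low to high held for 8 members in YTHDF1-ADAR cells (not HNRNPC and HNRNPR), 8 in YTHDF2-ADAR cells (not HNRNPA2B1 and HNRNPU) and 7 in YTHDF3-ADAR cells (not HNRNPA2B1, HNRNPU and HNRNPR). Together the 10 members held 0.272% of all counts in YTHDF1 RIP of YTHDF1-ADAR cells, 0.510% in YTHDF3 RIP, 0.878% in YTHDF2 RIP and 0.561% in input (means, n = 3). In YTHDF2-ADAR cells the shares were 0.508%, 0.655%, 0.955% and 0.617% in the same order, and in YTHDF3-ADAR cells 0.428%, 0.595%, 0.780% and 0.595%. These shares are of raw counts, without TMM scaling, and can differ in direction from the scaled values. In YTHDF3 RIP against input the members' median log2 fold change was -0.47 in YTHDF2-ADAR cells and -0.31 in YTHDF3-ADAR cells.

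Ranks among the 15953 protein-coding genes tested are not moved by a shift common to all genes. In YTHDF1 RIP of YTHDF1-ADAR cells HNRNPA2B1 stood at the 4.79 percentile, HNRNPC at 7.05 and HNRNPD at 8.31, and no member above 34.8. In YTHDF2-ADAR and YTHDF3-ADAR cells HNRNPA2B1 stood at 52.1 and 41.5, HNRNPC at 19.0 and 14.8, HNRNPD at 29.6 and 25.1, HNRNPA1 at 15.1 and 14.1 (15.1 in YTHDF1-ADAR cells), and HNRNPU at 74.4 and 73.8. In YTHDF2 RIP HNRNPA1 ranked at 97.3, 90.4 and 91.5 by line and HNRNPC at 18.6, 30.4 and 21.8. YTHDF3 RIP put HNRNPC at 24.5, 24.6 and 24.4.

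**Figure D3:**
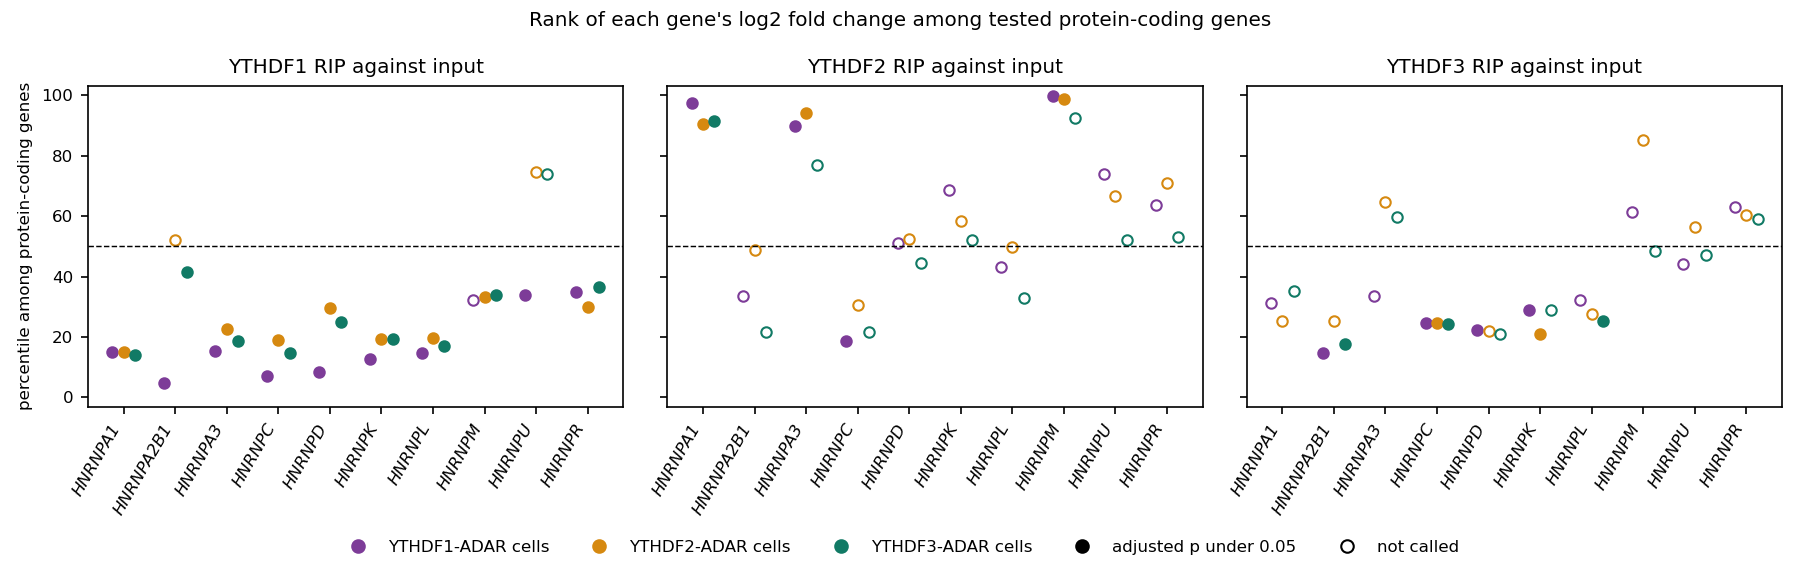
Percentile of each hnRNP gene's log2 fold change among tested protein-coding genes, by antibody (panels) and line (colors); the dashed line marks 50, and filled points were called at an adjusted p under 0.05. In YTHDF2 RIP HNRNPA1 and HNRNPM stand above the 90 percentile in each line, while in YTHDF1 RIP HNRNPU moves from 34.0 to 74.4 and 73.8.

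The authors' deposited table gives 1 log2 fold change per RIP, with no line named. For YTHDF1 RIP it lists -1.78 for HNRNPC (adjusted p = 6.17e-38), -1.73 for HNRNPA1 and -0.21 for HNRNPU (adjusted p = 0.425). For YTHDF2 RIP the authors' deposited table lists 1.32 for HNRNPM (adjusted p = 2.66e-08), 0.87 for HNRNPA1 (1.06e-07) and 0.74 for HNRNPA3 (0.000192). For YTHDF3 RIP the authors' deposited table has its lowest member value at -0.65 for HNRNPA2B1 (adjusted p = 0.00272).

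Other hnRNP genes, a list of 17 that includes the poly(C)-binding proteins PCBP1 and PCBP2, PTBP1, SYNCRIP and the HNRNPH genes, gave 3 higher and 12 lower in YTHDF1 RIP of YTHDF1-ADAR cells and 0 and 14 in each of the other lines. Over all genes 20.6%, 41.8% and 40.8% were higher and 28.8%, 33.4% and 32.4% lower by line. Of 15953 protein-coding genes 5759, 8159 and 8016 were lower. In YTHDF1-ADAR cells PCBP1 was highest (0.83 ± 0.26, adjusted p = 0.00819) and HNRNPH3 lowest (-1.98 ± 0.23). HNRNPH2 was lowest in the other lines (-2.56 ± 0.23 and -2.17 ± 0.23). The highest value in YTHDF2-ADAR cells, 0.13 for HNRNPH1, was not called. The difference between lines was called for 9 of the 17 in YTHDF1 RIP, where 63.7% of all genes were called. It was called for 0 in the other RIPs (3 and 1 at an unadjusted p under 0.05 in YTHDF2 and YTHDF3 RIP, 0 of the members).

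In YTHDF2 RIP the list gave 4 higher and 5 lower, 3 and 1, and 3 and 0 by line. Over all genes 8.66%, 10.2% and 8.98% were higher and 15.4%, 10.1% and 9.93% lower. Of 15953 protein-coding genes 2283, 2650 and 2340 were higher and 3509, 2131 and 2072 lower. HNRNPA0 was highest in YTHDF1-ADAR cells (1.44 ± 0.17) and HNRNPUL2 in the others (1.21 ± 0.16 and 1.09 ± 0.16), all called. PCBP2 was lowest in each line (-1.22 ± 0.20, -0.88 ± 0.19 and -0.50 ± 0.19), the last not called (adjusted p = 0.0653). In YTHDF3 RIP the counts were 0 and 8, 1 and 7, and 1 and 5, where 11.5%, 15.2% and 13.5% of all genes were higher and 20.1%, 16.9% and 16.1% lower. PCBP2 was lowest again (-1.58 ± 0.20, -1.61 ± 0.20 and -1.08 ± 0.19), and the highest were HNRNPUL1 (0.14, not called) and then HNRNPUL2 (0.58 and 0.61, both called).

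In the deposited counts a read with several mapping places, or within several genes, was given to each of them, and strand was not used, though the library kit keeps it. So a member shares reads with its processed copies and with genes that overlap its exons. HNRNPA1 has 40 tested copies, whose levels summed to 15.5% to 24.8% of its own over the 12 groups, and HNRNPA3 and HNRNPC have copies at 4.09% to 8.72% and 3.66% to 7.37%. The copy HNRNPA1L2 moved like HNRNPA1: -0.88, -1.58 and -1.52 in YTHDF1 RIP and 0.92, 0.65 and 0.43 in YTHDF2 RIP. Values of these genes are therefore uncertain as measures of 1 locus.

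The 2 members called with all libraries for a difference between lines in YTHDF1 RIP also overlap protein-coding genes on the opposite strand. That selection is not firm, since the call of HNRNPU was lost in 14 of 18 fits without 1 library. HNRNPU shares 3502 exon bases, 15.56% of its exons, with COX20, a gene for a mitochondrial assembly factor. COX20 read 38.8, 39.8 and 54.7 CPM in YTHDF2-ADAR inputs and 240.5, 217 and 203 in YTHDF1 RIP, 2.31 ± 0.25 (adjusted p = 2.25e-09). It was 1.38 ± 0.25 (adjusted p = 1.08e-05) in YTHDF3-ADAR cells and -0.88 ± 0.25 (adjusted p = 0.00309) in YTHDF1-ADAR cells, lower than input in the line where HNRNPU was lower. HNRNPA2B1 shares 1207 exon bases (9.57%) with NFE2L3, a transcription factor gene, which was higher in YTHDF1 RIP of each line (1.2, 1.03 and 0.47), and 368 (2.92%) with CBX3, a heterochromatin protein gene, which was lower (-1.95, -1.48 and -1.70). The part of overlapping reads in the members' values was not tested.

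HNRNPK overlaps a microRNA gene on its own strand. MIR7-1 covers 110 exon bases (2.16%) of HNRNPK, and its mature products are listed by RefSeq for GRCh38.p14 at chr9:83969811-83969834 and chr9:83969771-83969792, minus strand. They are shown since counts over this gene were higher in YTHDF1 RIP of 2 lines, where HNRNPK was lower. The seed (bases 2 to 8) is in capitals.
hsa-miR-7-5p: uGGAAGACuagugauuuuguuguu
hsa-miR-7-1-3p: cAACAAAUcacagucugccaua

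Counts over MIR7-1 were low, and take in any read over the annotated precursor, so they do not measure the mature microRNA. They read 0.244, 0.196 and 0.434 CPM in YTHDF2-ADAR inputs and 2.15, 1.71 and 2.24 in YTHDF1 RIP (2.80 ± 0.51, adjusted p = 9.54e-06). In YTHDF3-ADAR cells they read 0.384, 0.383 and 0.199 against 1.72, 1.25 and 1.97 (2.32 ± 0.50, adjusted p = 0.000119). In YTHDF1-ADAR cells they read 1.09, 0.857 and 0.422 against 0.354, 0.324 and 0.351, lower and not called (-1.18 ± 0.51, adjusted p = 0.0521). HNRNPK itself fell in all 3 lines, so the opposite directions were seen in the lines whose YTHDF1 RIP libraries stood apart.

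Across the 12 group means of log2 CPM the members moved together to different degrees. Pearson's r between pairs of members ran from 0.234 (HNRNPU and HNRNPR) to 0.966 (HNRNPA1 and HNRNPK), with a median of 0.809. These points share libraries, scaling and composition, and r is given as a description. The genes outside the lists most like the mean profile of the 10, among 9046 searched, were PRKCI (r = 0.993), PDHA1 (0.993), SCPEP1 (0.991), HEATR3 (0.990) and CSTF2 (0.988), where the median gene had 0.353.

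Editing was read from the authors' deposited tables, 1 for each line, in which replicates are pooled. Each gene has a number of edited sites and, for each arm, a score from which the editing level follows as a percent of the reads per site on average. Depth behind the levels is unknown, so no interval is given and the p-values are the authors'. Site positions were not used here, and the tables may list different sites of 1 gene. The YTHDF1-ADAR cells have 8 members listed among 7829 genes, the YTHDF2-ADAR cells 6 among 2402, and the YTHDF3-ADAR cells 8 among 2944. HNRNPA1 and HNRNPK are listed in none.

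HNRNPC carried by far the most edited sites of the members in every table. It has 40 sites in YTHDF1-ADAR cells, where 875 of 7829 genes had as many, 87 in YTHDF2-ADAR cells, where 2 genes had as many (itself included), and 73 in YTHDF3-ADAR cells, where 6 did. The median gene had 6, 1 and 1 sites. HNRNPA3 had 17, 2 and 2 sites and HNRNPR 7, 1 and 7. HNRNPA2B1 had 2 in each, HNRNPD 2, 3 and 3, HNRNPU 1, 4 and 4, HNRNPL 1 in the first and last table and HNRNPM 1 and 2 there.

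In YTHDF1-ADAR cells the authors' deposited table gives HNRNPC nearly the same level in every arm: 4.63% in input and 4.73%, 4.39% and 4.43% in YTHDF1, YTHDF2 and YTHDF3 RIP. HNRNPA3 stood at 0.911% in input and 1.29%, 1.47% and 1.24%, and HNRNPR at 0.893% and 1.5%, 1.43% and 1.01%, without an adjusted p under 0.05 for any of them. HNRNPA2B1, at 14.9% in input, stood at 11.9%, 24.7% and 25.9%. HNRNPD was lower in each RIP (2.07%, 2.07% and 1.97% against 3.95%). HNRNPU, with 1 site, had 4.62% in input and 2.53%, 8.59% and 3.35%, and HNRNPL 0.320% and 1.03%, 1.2% and 0.182%. HNRNPM alone passed the authors' test, in YTHDF3 RIP (0.514% to 1.10%, natural log odds ratio 0.77, authors' adjusted p = 0.0359).

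In YTHDF2-ADAR cells HNRNPA2B1 had the highest level of the members in the authors' deposited table, 77.6% in YTHDF1 RIP against 14.9% in input over its 2 sites (natural log odds ratio 2.98, authors' adjusted p = 1.89e-29). Its levels were 15.6% in YTHDF2 RIP and 12.6% in YTHDF3 RIP. HNRNPA3 went from 2.89% to 10.5% in YTHDF1 RIP (authors' adjusted p = 0.0544), with 3.27% and 3.02% in the others. HNRNPU stayed between 0.631% and 0.803% in the 4 arms. HNRNPD is listed at 0 in input and at 3.15%, 1.87% and 1.54% in the RIPs. HNRNPC and HNRNPR have no value for input or YTHDF2 RIP, and stood at 8.22% and 29.1% in YTHDF1 RIP and 9.48% and 35.3% in YTHDF3 RIP. The YTHDF1 RIP levels of this line and of YTHDF3-ADAR cells come from the 6 libraries that stood apart.

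In YTHDF3-ADAR cells the members with the highest input levels in the authors' deposited table were lower in YTHDF1 RIP. HNRNPC went from 14.4% to 8.62% over 73 sites (natural log odds ratio -0.58, authors' adjusted p = 8.98e-07), stood at 13.2% in YTHDF3 RIP, where its log odds ratio is listed at 0, and has no value for YTHDF2 RIP. HNRNPL, with 1 site, went from 12.2% to 6.01% (log odds ratio -0.78, authors' adjusted p = 2.87e-06), with 8.33% in YTHDF3 RIP and a listed 0 in YTHDF2 RIP. HNRNPR went from 16.2% to 10.1% in YTHDF1 RIP and 9.23% in YTHDF3 RIP, neither passing (authors' adjusted p = 0.129 and 0.149), with a listed 0 in YTHDF2 RIP. HNRNPA2B1 stood at 0.142% in input here, where the other tables give 14.9% and 14.9%, and at 0.841%, 0.186% and 0.0148% in the RIPs. HNRNPD read 2.20% in input and 3.95%, 8.46% and 2.15%, and HNRNPU 0.810% and 2.27%, 1.04% and 0.761%. HNRNPM and HNRNPA3 stayed under 1% in every arm (0.535% to 0.856%, and 0.339% to 0.586%).

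**Figure D4:**
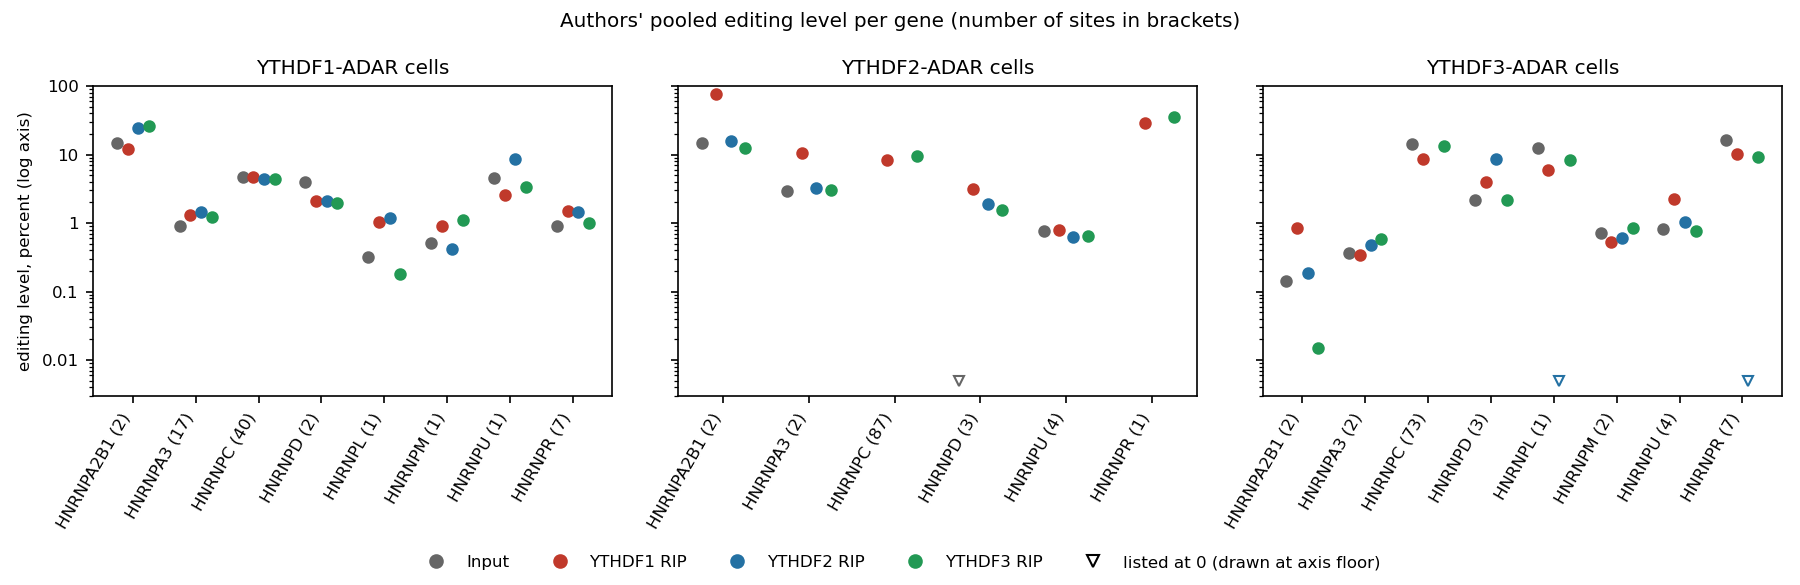
Editing level in percent, on a log axis, of each listed hnRNP gene in input and each RIP, by line (panels), from the authors' pooled tables, with the number of sites in brackets and open triangles for values listed at 0. HNRNPA2B1 in YTHDF1 RIP of YTHDF2-ADAR cells stands highest at 77.6%, and the 4 levels of HNRNPC in YTHDF1-ADAR cells lie between 4.39% and 4.73%.

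Of 57 member values from genes with a value in every arm, 32 were higher in RIP than in input and 3 had an authors' adjusted p under 0.05. In YTHDF1-ADAR cells 5, 5 and 4 of 8 members were higher in YTHDF1, YTHDF2 and YTHDF3 RIP, beside 82.5%, 77.6% and 75.8% of all such genes. In YTHDF2-ADAR cells 4, 3 and 2 of 4 were higher (31.7%, 49.2% and 58.6% of genes), and in YTHDF3-ADAR cells 3, 4 and 2 of 7 (27.8%, 45.6% and 58.6%). The authors' adjusted p was under 0.05 for 0, 0 and 1 members in YTHDF1-ADAR cells (8.15%, 1.64% and 1.13% of genes), for 1, 0 and 0 in YTHDF2-ADAR cells (2.77%, 0.227% and 1.41%) and for 1, 0 and 0 in YTHDF3-ADAR cells (2.86%, 0.109% and 1.95%), in the order of the antibodies. HNRNPC in YTHDF3-ADAR cells is outside these counts, since it lacks a YTHDF2 RIP value.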

How the data were processed

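RNA of 36 libraries (12 groups of 3) was rRNA-depleted and sequenced. Reads were aligned with STAR 2.7.7 to GRCh38, per the submitters' processing notes. The authors' deposited counts were made with featureCounts 2.0.1, per the file headers, with multi-mapping and overlapping reads counted for every gene, duplicates ignored and no strand option. The added Apobec1 row (1) was left out. The authors' deposited DESeq2 table gives log2 fold changes, adjusted p-values and a mean normalized signal, which was not printed. The authors' deposited editing tables give a score per arm (sites times the editing fraction), a natural log odds ratio and adjusted p-values, with replicates pooled; the site caller is not given in the sources used here. Editing levels are 100 times score over sites, and these give back the authors' natural log odds ratio within 1e-06 for 53 of the members' 66 values; the other 13 have a level at 0 or belong to a gene without a value in every arm.

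Counts were filtered (filterByExpr), TMM-scaled and tested with edgeR 4.0.16's quasi-likelihood test in 1 fit over the 12 groups, with Benjamini-Hochberg adjustment over 31849 genes and a limit of 0.05; CPM are TMM-scaled. The sums per library ran from 12.5 to 37.5 M counts, and their effect on precision was not tested. In data simulated for YTHDF1 RIP against input in YTHDF1-ADAR cells (31849 genes) the script recovered 14.9%, 76.1% and 98.5% of genes changed 1.5-fold, 2-fold and 4-fold, and called 0.0291% of unchanged genes. The simulation changed 67, 67 and 66 genes in that RIP group and otherwise gave all libraries the same make-up. These rates therefore do not cover the differing make-up of the real libraries. No 2 libraries held identical values. Alternatives were DESeq2 1.42.0, total-count scaling, TMM over protein-coding genes, scaling to 13 mitochondrial mRNAs, no filter, only the groups compared, the replicate number as a block, each library left out in turn and, added after seeing the data, 2 YTHDF1-ADAR libraries left out together. Fits with libraries left out, or with only the groups compared, were filtered and TMM-scaled anew, so their calls can also change with the scaling. Members and gene lists were chosen with earlier results of these data known. All 10 members are named; of the 17 other hnRNP genes, the highest and lowest in each RIP against input, except 1 that is not reported here; of copies and overlapping genes (119 copies listed, 68 tested), those with values bearing on a member, picked after their values were seen; and the 5 genes with the highest correlation among those with a mean log2 CPM of at least 4. MicroRNA sequences are from RefSeq, GRCh38.p14.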

Additional observations from a re-analysis of the deposited data

Results flagged for a closer look

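The YTHDF1 RIP difference between lines was tested with an interaction term, and 2 members passed. HNRNPA2B1 had an adjusted p of 0.000211, with log2 fold changes of -1.90, -0.42 and -0.67 in the YTHDF1-, YTHDF2- and YTHDF3-ADAR lines; with TMM over protein-coding genes the last 2 were 0.04 and -0.22, neither called. HNRNPU had an adjusted p of 0.00719, with -0.66, 0.34 and 0.33. With each of 18 libraries left out in turn the adjusted p ran from 1.82e-05 to 0.0516 for HNRNPA2B1 and from 4.75e-05 to 0.468 for HNRNPU. For HNRNPR, not called with all libraries, it ran from 0.00554 to 0.388. The same test called 63.7% of all genes. The libraries behind the YTHDF2-ADAR and YTHDF3-ADAR values had the low protein-coding and high small nucleolar RNA shares given above, whose part in these differences was not tested.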

How the results depend on the processing

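YTHDF1 RIP counts of members held best: leaving out 1 library gave 7 to 10, 8 to 9 and 9 to 9 called by line, and 10 to 10 against YTHDF2 RIP. Counts of called members that moved by over 1.5 times were as follows, with lines named by their fusion. The shares of all genes called under each setting are not given here, so the counts describe the stability of the members' calls only. With total-count scaling YTHDF3 RIP against input gave 2 (YTHDF1-ADAR; 4 in the reported fit) and 1 (YTHDF3-ADAR; 3), YTHDF2 RIP 3 (YTHDF3-ADAR; 1), and the YTHDF1 RIP line difference 4 (2). TMM over protein-coding genes gave 5 for YTHDF3 RIP (YTHDF2-ADAR; 2), 2 for YTHDF2 RIP (YTHDF3-ADAR; 1) and 4 for the line difference. Scaling to mitochondrial mRNAs gave 2, 1 and 0 for YTHDF2 RIP by line (4, 3 and 1), 0 for YTHDF3 RIP in YTHDF1-ADAR and in YTHDF3-ADAR cells (4 and 3), 1 for the line difference, and 1, 0 and 0 for YTHDF2 against YTHDF3 RIP (5, 3 and 1). No filter gave 4 for YTHDF3 RIP (YTHDF2-ADAR), 2 for YTHDF2 RIP and 3 for YTHDF2 against YTHDF3 RIP (both YTHDF3-ADAR), and 1 between the YTHDF1-ADAR and YTHDF2-ADAR inputs (0). Fitting only the groups compared gave 1 for YTHDF2 RIP and 1 for YTHDF3 RIP (both YTHDF1-ADAR), 7 for YTHDF3 RIP (YTHDF2-ADAR), 4 for YTHDF2 RIP (YTHDF3-ADAR), 1 for the line difference, and 6 and 2 for YTHDF2 against YTHDF3 RIP (YTHDF2-ADAR and YTHDF3-ADAR). DESeq2 gave 4 for YTHDF3 RIP (YTHDF2-ADAR), 2 for YTHDF2 RIP (YTHDF3-ADAR) and 1 between those inputs. Without the 2 YTHDF1-ADAR libraries YTHDF2 RIP gave 2 and YTHDF3 RIP 7 in that line. With at least 5 sites, 7 of 12 editing values were higher in RIP (32 of 57 without that minimum): 7 of 9 in YTHDF1-ADAR cells, where 92.9%, 90.2% and 85.5% of genes with as many sites were higher in YTHDF1, YTHDF2 and YTHDF3 RIP, and 0 of 3 in YTHDF3-ADAR cells (24.1%, 59.3% and 67.6%).

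Leaving out 1 library gave 1 to 2 for the YTHDF1 RIP line difference, 1 to 6, 1 to 4 and 0 to 3 for YTHDF3 RIP by line, 1 to 3 for YTHDF2 RIP in YTHDF2-ADAR and 0 to 2 in YTHDF3-ADAR cells, 3 to 5 and 1 to 2 for YTHDF2 against YTHDF3 RIP in YTHDF1-ADAR and YTHDF3-ADAR cells, and 0 to 2 between the YTHDF1-ADAR and YTHDF2-ADAR inputs. Called values changed sign only with scaling to mitochondrial mRNAs, or, for HNRNPU, were then called with the other sign: in YTHDF3 RIP HNRNPK stood at 0.039 (YTHDF1-ADAR) and 0.026 (YTHDF2-ADAR) and HNRNPC at 0.21 (YTHDF2-ADAR), and in YTHDF1 RIP HNRNPU at -1.26 (YTHDF3-ADAR). Apart from fewer genes or samples entering, and scaling done anew, the cause was not tested.

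Replicate numbers share only a number: the labels do not tie them to a shared lysate, and 3 of 18 pairs of groups had all their same-numbered correlations over 0.1. With the replicate number as a block the counts called for YTHDF1 RIP were 9, 8 and 9 by line, for YTHDF2 RIP 4, 3 and 1, for YTHDF3 RIP 4, 2 and 2, and for YTHDF2 against YTHDF3 RIP 4, 2 and 1. That block ended 3 calls of members, those of HNRNPL, HNRNPA2B1 and HNRNPD given above.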
